A study of Mus musculus with 2 samples.

Results

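The 9 genes described here encode the heavy chains of the myosins of striated muscle, and they were taken by name from the 55536 annotated genes measured. They are Myh3 and Myh8, the developmental forms, Myh1, Myh2 and Myh4, the adult fast forms, Myh6 and Myh7, the cardiac and slow forms, and Myh7b and Myh13, which have specialised sites of expression. Total RNA was sequenced from adrenal gland of male mice of the strain B6CASTF1/J, hybrids of the first generation between C57BL/6J and CAST/EiJ, at 10 days of age. There is 1 group of 2 biological replicates, each with 1 library made from 300 ng of RNA, so no condition was compared with another and no gene has a p-value. The labels number the animals 3 and 4 in one field and give the number 3 to both in another, and both samples carry the same donor identifier. Whether the 2 libraries stem from separate animals is therefore uncertain, and their spread may be partly technical.

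Each striated muscle fibre builds its thick filaments from 1 or more of these heavy chains, which hydrolyse ATP and pull on actin, and the chain in use sets how fast the fibre shortens. In limb and trunk muscle of rodents the embryonic and perinatal chains are used first and are replaced after birth by the adult fast chains or, in slow fibres, by the beta chain. An adrenal gland has no striated muscle of its own, while muscle lies behind and above it in the body wall and the diaphragm. The label was checked against markers of the gland: all 6 cortex markers and all 6 chromaffin markers stood above 1 TPM in both libraries. Their summed levels were 5773 TPM (cortex) and 1492 TPM (chromaffin) in replicate 1, against 5031 and 1242 TPM in replicate 2. The 5 brown adipocyte markers summed to 3430 and 3031 TPM, above the chromaffin sum in both libraries. The check therefore shows that gland was present, not that it was the only tissue. TPM is a level per transcript length, scaled to the whole library. The gene tables held 36982665 (replicate 1) and 38984236 (replicate 2) expected counts.

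Of the 9 genes, 6 lie in tandem on chromosome 11 of mm10, all on the plus strand, within 293 kb from 67078300 to 67371586. In order of position these are Myh3, Myh2, Myh1, Myh4, Myh8 and Myh13. Myh6 (54941921 to 54966927) and Myh7 (54970684 to 54994626) are neighbours on the minus strand of chromosome 14, and Myh7b (155611212 to 155634307) is on the plus strand of chromosome 2. The bases before the starts of the 4 genes with the highest levels are printed here because these 4, and no other gene with a window, share a run of 14 bases, TTCTAATTATATCC, given in capitals. Myh3, the first gene of the tandem array, is printed for comparison. The windows are those of RefSeq on GRCm38.p6, shown from 5′ to 3′ on the plus strand and ended before the first annotated exon: chr11:67199852-67200051 for Myh1, chr11:67237562-67237811 for Myh4, chr11:67170777-67171026 for Myh2, chr11:67276874-67277123 for Myh8 and chr11:67078050-67078299 for Myh3.
Myh1: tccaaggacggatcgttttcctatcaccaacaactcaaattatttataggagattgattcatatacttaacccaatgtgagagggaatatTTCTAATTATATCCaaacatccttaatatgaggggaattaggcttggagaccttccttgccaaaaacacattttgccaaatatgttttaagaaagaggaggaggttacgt
Myh4: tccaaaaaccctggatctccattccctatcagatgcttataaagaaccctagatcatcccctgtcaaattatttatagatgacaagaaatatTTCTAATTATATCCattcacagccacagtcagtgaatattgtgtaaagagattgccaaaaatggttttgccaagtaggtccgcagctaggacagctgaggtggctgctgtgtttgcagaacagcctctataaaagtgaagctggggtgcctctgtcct
Myh2: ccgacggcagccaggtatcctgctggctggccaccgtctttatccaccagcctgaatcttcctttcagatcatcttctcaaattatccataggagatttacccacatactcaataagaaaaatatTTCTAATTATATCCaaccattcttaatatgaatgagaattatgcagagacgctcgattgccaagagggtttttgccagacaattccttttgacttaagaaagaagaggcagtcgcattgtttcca
Myh8: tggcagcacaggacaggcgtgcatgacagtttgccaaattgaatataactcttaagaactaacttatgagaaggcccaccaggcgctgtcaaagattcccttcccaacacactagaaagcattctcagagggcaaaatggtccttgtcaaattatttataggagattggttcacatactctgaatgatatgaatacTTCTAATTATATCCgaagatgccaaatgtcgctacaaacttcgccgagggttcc
Myh3: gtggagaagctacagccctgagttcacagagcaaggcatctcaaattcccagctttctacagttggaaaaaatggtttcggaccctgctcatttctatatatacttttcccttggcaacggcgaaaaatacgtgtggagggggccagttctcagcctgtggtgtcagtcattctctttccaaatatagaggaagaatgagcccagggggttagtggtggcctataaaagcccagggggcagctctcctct

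The run was found by searching the 250 bases before the start of all 9 genes for a stretch of at least 10 bases common to the largest number of them, and taking the longest. It starts 160 bases before the RefSeq start of Myh1, 158 before that of Myh4, 125 before that of Myh2 and 54 before that of Myh8. On either strand it was found in 4 of 32851 promoter windows of 300 bases, and those 4 belong to these 4 genes. As the run was chosen because the genes share it, this count describes the family and tests nothing. A match to the MEF2 site, the motif of a transcription factor family of muscle, lies upstream of the run in Myh1 at 211 bases before the start, in Myh4 at 182 and in Myh8 at 99. MEF2 sites were in 3.19% of all windows. The motif TATAAA lies 32 bases before the RefSeq start in Myh1, 31 in Myh4, with a further match at 213, and 29 in Myh3. In Myh1 the annotated first exon begins before the RefSeq start, so the match at 32 is not in the printed bases. TATAAA was found on either strand in 13.6% of all windows. In Myh1, Myh4 and Myh8 a reverse-strand match lies inside the MEF2 site. The E-box CANNTG, which myogenic factors of the MyoD family bind, was in windows of 7 of the 9 genes and in 72.3% of all windows. A match in these letters describes the reference sequence, not that of the CAST/EiJ parent, and does not show a bound site.

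**Figure D1:**
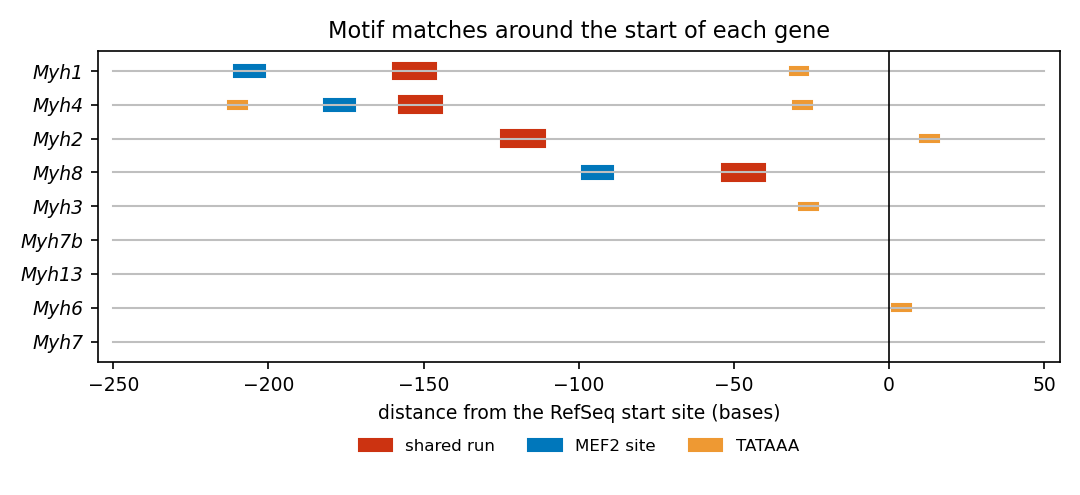
Positions of 3 motifs in the RefSeq windows of the 9 genes, from 250 bases before to 50 bases after the start site (vertical line at 0), on either strand. The shared run of 14 bases appears in Myh1, Myh4, Myh2 and Myh8, and a MEF2 site upstream of it in Myh1, Myh4 and Myh8; Myh7 has 2 windows and holds none of the 3 motifs.

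The adult fast heavy chains made up most of the family's RNA in both libraries and the developmental forms a small part. The summed level of the 9 genes was 58.2 TPM (replicate 1) and 134 TPM (replicate 2). The adult fast genes took 87.2% of that sum in replicate 1 and 84.8% in replicate 2 (86.0% ± 1.72, SD, n = 2), and the developmental genes took 8.93% and 7.70% (8.32% ± 0.87, SD, n = 2). The slow and cardiac pair took 3.78% and 7.42% (5.60% ± 2.58, SD, n = 2), and Myh7b and Myh13 together took 0.086% and 0.097%. Within a library the log2 ratio of the adult fast over the developmental sum was 3.29 (replicate 1) and 3.46 (replicate 2), with a mean ratio of 10.4.

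**Figure D2:**
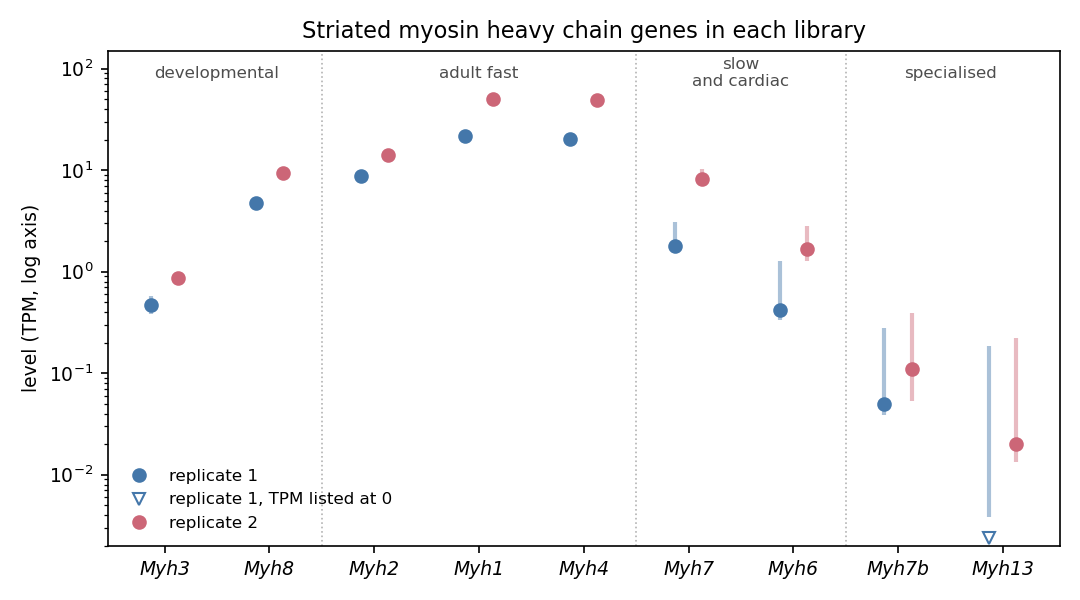
Level of each heavy chain gene in TPM on a log axis, by role, in replicate 1 (blue) and replicate 2 (red); bars are the authors' deposited interval bounds, and an open triangle marks the gene listed at 0. Myh1 and Myh4 are highest in both libraries, every gene has a higher TPM in replicate 2, and the bars are widest for Myh6, Myh7b and Myh13.

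Myh1, the chain of type IIX fibres, had 21.7 TPM in replicate 1 and 50.5 TPM in replicate 2 (36.1 ± 20.3, SD, n = 2). Myh4, the chain of type IIB fibres, the fastest of the mouse limb, had 20.4 and 49.0 TPM (34.7 ± 20.3, SD, n = 2). These were the 2 highest genes in each library, and their order was not settled: Myh1 exceeded Myh4 by 1.07 and 1.03 times in TPM, while Myh4 had more expected counts in both libraries, 4409 against 4269 and 10765 against 10351. Myh2, the chain of type IIA fibres, followed with 8.71 and 14.2 TPM (11.5 ± 3.91, SD, n = 2). Myh4 exceeded Myh2 by 2.34 times in replicate 1 and by 3.44 times in replicate 2.

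Of the developmental forms, the perinatal chain was the main one. Myh8, the perinatal chain, had 4.73 TPM in replicate 1 and 9.47 TPM in replicate 2 (7.10 ± 3.35, SD, n = 2), the fourth level of the family in both libraries. Myh3, the embryonic chain, had 0.47 and 0.86 TPM (0.665 ± 0.276, SD, n = 2), on 102 and 189 expected counts. Myh8 exceeded Myh3 by 3.33 and 3.46 on the log2 scale, a mean ratio of 10.5. All 3 adult fast genes stood above Myh8 in both libraries, by unequal amounts. On the log2 scale Myh4 exceeded Myh8 by 2.11 and 2.37, while Myh2, the lowest adult fast gene, exceeded it by only 0.88 and 0.59.

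Myh7, the beta chain of slow fibres and of the ventricle, had 1.78 TPM in replicate 1 and 8.26 TPM in replicate 2 (5.02 ± 4.58, SD, n = 2). It lay below Myh8 in both libraries, by 2.66 times in replicate 1 and by 1.15 times in replicate 2, a gap that varied more between the libraries than its mean size (0.80 ± 0.86 on the log2 scale, SD, n = 2). Short transcripts carried 30.3% of the TPM of Myh7 in replicate 1 and 40.0% in replicate 2, on 5.12 and 42.8 counts. Over transcripts of at least 5000 bases Myh7 had 1.24 and 4.96 TPM, against 4.72 and 9.47 TPM for Myh8, a mean gap of 1.43 on the log2 scale. Myh6, the alpha chain of the atrium and the mouse ventricle, had 0.42 and 1.69 TPM (1.06 ± 0.898, SD, n = 2) on only 23.4 and 75.3 expected counts. The TPM of Myh6 rests largely on 1 short transcript: Myh6-207, of 542 bases, carried 80.6% of the gene's TPM in replicate 1 and 86.2% in replicate 2 on 5.55 and 23.95 counts. Over transcripts of at least 5000 bases Myh6 had 0.08 and 0.23 TPM, below Myh3, whereas over all transcripts it stood below Myh3 in replicate 1 and above it in replicate 2.

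The specialised forms were at the edge of detection. Myh7b, a chain of slow and extraocular muscle and of the heart, had 10 (replicate 1) and 7 (replicate 2) expected counts, or 0.05 and 0.11 TPM. Its higher TPM in replicate 2 rests on Myh7b-203, of 674 bases, with 0.09 TPM on 1.89 counts. Over transcripts of at least 5000 bases Myh7b had 0.05 and 0.02 TPM. Myh13, the chain of extraocular and laryngeal muscle, had 0 counts in replicate 1, which allows up to 3, and 3.21 in replicate 2, so no fold was computed for it. The authors' deposited interval bounds ran from 0.00387 to 0.184 TPM for Myh13 in replicate 1 and from 0.0135 to 0.223 TPM in replicate 2. Its deposited posterior mean levels were 0.07 and 0.09 TPM, against a TPM of 0 and 0.02. The TPM of 0 in replicate 1 lies below its bounds, so bounds above 0 do not show detection.

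**Figure D3:**
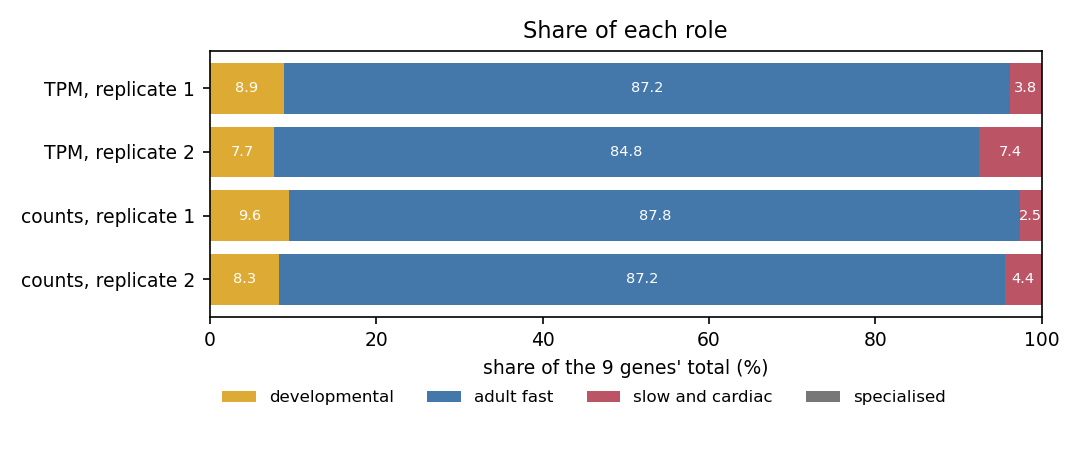
Share of each role in the 9 genes' total, by TPM and by expected counts, in each replicate (horizontal axis in percent; the specialised share is under 0.1% and not visible). The adult fast share is between 84.8% and 87.8% in all 4 bars, and the slow and cardiac share is larger in replicate 2 on both scales.

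The family as a whole was higher in replicate 2, and its makeup was not the same in the 2 libraries. Summed expected counts were 12022 and 27788, a fold of 2.31 after TMM scaling (exact binomial 95% interval 2.26 to 2.36; here and below such intervals cover counting error only, not the spread between samples). Of the 6 members that reach 100 counts on average, all 6 were higher in replicate 2 and 4 were more than 2-fold higher, Myh1, Myh4, Myh7 and Myh8. Among all 13188 genes with such a mean, 4.38% were more than 2-fold higher in replicate 2, 0.114% passed that fold in the other direction, and 49% had any excess in replicate 2. With the minimum lowered to 10 counts, 5 of 7 members (Myh6 in addition) and 6.74% of all genes were more than 2-fold higher in replicate 2, and no member and 1.26% of all genes in replicate 1. The median fold was 2.23 over the 6 members and 0.996 over all genes. In a bulk tissue a difference in the number of muscle fibres cannot be told apart from one in RNA per fibre.

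Myh4 was 2.44-fold higher in replicate 2 (2.36 to 2.53) and Myh1 was 2.43-fold higher (2.34 to 2.52), a pair with overlapping intervals. Myh2 was 1.66-fold higher (1.56 to 1.76), below both of them. Within the adult fast counts Myh2 accordingly took 17.8% in replicate 1 (17.1 to 18.6) and 12.9% in replicate 2 (12.4 to 13.3), while Myh1 and Myh4 took 40.4% and 41.8% in replicate 1 and 42.7% and 44.4% in replicate 2. Myh8 was 2.03-fold higher (1.89 to 2.19) and Myh3 was 1.85-fold higher (1.45 to 2.38). The call of Myh8 depends on the scaling, with a fold of 1.93 under the library total and 1.96 under the spike-in total.

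Myh7 had the highest fold of the members, 4.13 (3.62 to 4.72), and Myh6 came next at 3.22 (2.02 to 5.46). In counts the slow and cardiac pair took 2.52% of the family in replicate 1 (2.25 to 2.82) and 4.43% in replicate 2 (4.19 to 4.67), and these intervals do not overlap. The developmental pair took 9.57% (9.05 to 10.1) and 8.33% (8.01 to 8.67), also without overlap, and the adult fast trio took 87.8% (87.2 to 88.4) and 87.2% (86.8 to 87.6), with overlap. Myh7b, at 0.701-fold, was the only member with a fold below 1, and its interval of 0.226 to 2.04 spans 1.

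**Figure D4:**
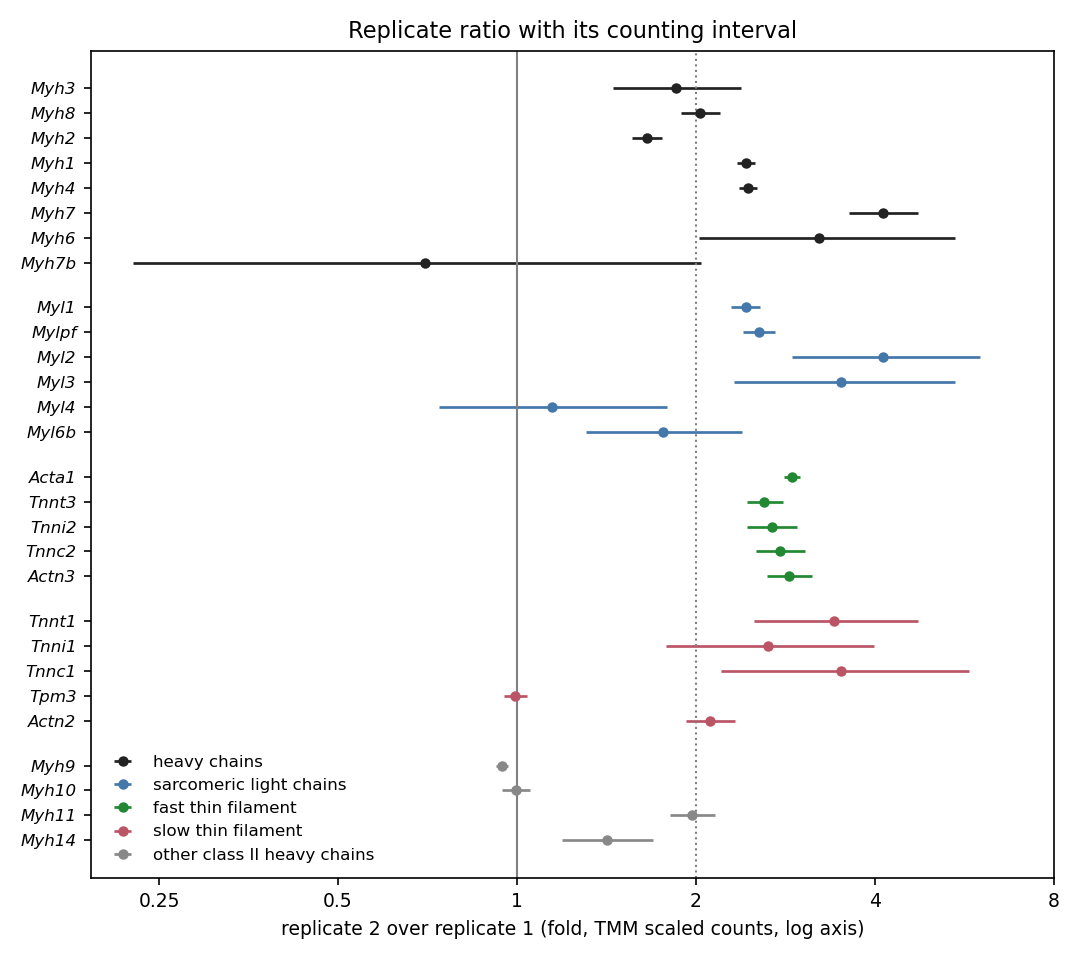
Fold of replicate 2 over replicate 1 for TMM scaled counts, on a log axis, with exact binomial 95% intervals for counting error, for 8 heavy chains and 4 lists of related genes; the lines mark 1 and 2. Heavy chains, light chains and fast thin filament genes mostly lie beyond 2, Myh7 and Myl2 lie near 4, Myh10 and Tpm3 lie at 1, and Myh9 lies just below 1. Genes with 0 counts in replicate 1 (Myh13, Myl7, Myh15) are not drawn.

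Other parts of the sarcomere, taken from lists of related genes, were also higher in replicate 2. Of the 7 sarcomeric light chains all 7 were higher and 4 were more than 2-fold higher, at a median fold of 2.43 that counts Myl7 at its floor. Among all genes with more than 3 counts in a library, 9.61% were more than 2-fold higher in replicate 2 and 4.02% in replicate 1; the share higher in replicate 2 by any amount was 51.2%. Mylpf, the regulatory light chain of fast fibres, had 86.85 TPM (replicate 1) and 225 TPM (replicate 2), and Myl1, the essential light chain of fast fibres, had 60.2 and 143 TPM. Myl2, the regulatory light chain of slow fibres and the ventricle, had 2.21 and 8.46 TPM, a fold of 4.13 (2.90 to 6.02) that equals that of Myh7 at this rounding. Myl3, its essential partner, was 3.50-fold higher (2.32 to 5.45). Myl4, the light chain of embryonic muscle and the atrium, had 1.55 and 1.73 TPM, a fold of 1.15 (0.739 to 1.79), and Myl6b had 2.09 and 3.62 TPM.

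All 5 genes of the fast thin filament list were more than 2-fold higher in replicate 2, within a narrow range from 2.61 for Tnnt3, fast troponin T, to 2.90 for Acta1, skeletal actin. Among all genes with more than 3 counts in a library 9.61% were more than 2-fold higher in replicate 2. Tnni2 and Tnnc2, the other fast troponins, were at 2.68 and 2.77, and Actn3, the alpha-actinin of fast fibres, at 2.87. Of the 5 genes of the slow thin filament list 4 were more than 2-fold higher. The names of the 2 lists are broad labels, as Acta1 and Actn2 are not confined to 1 fibre type. Tnnt1, slow troponin T, was 3.42-fold higher (2.50 to 4.73), Tnnc1, slow and cardiac troponin C, 3.50-fold (2.20 to 5.77), Tnni1, slow troponin I, 2.64-fold (1.78 to 3.99) and Actn2 2.12-fold (1.92 to 2.33). Tpm3, a tropomyosin that non-muscle cells also make, was at 0.994-fold (0.951 to 1.04). The interval of Myh7 overlapped those of Tnnt1, Tnnc1 and Tnni1 and lay above those of Actn2, Tpm3 and the 5 genes of the fast list.

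All 11 thick filament partners and chaperones of the myosin heavy chain were higher in replicate 2, and 7 were more than 2-fold higher, with a median fold of 2.30. Among these 7, Mybpc3 passed on only 2 and 4 counts, with an interval of 0.287 to 22.1. Among all genes with more than 3 counts in a library 9.61% were more than 2-fold higher in replicate 2. The most abundant were Ttn, the titin spring, with 14.6 and 28.9 TPM, Mybpc1, slow myosin binding protein C, with 5.44 and 14.3 TPM, Mybpc2, its fast counterpart, with 3.01 and 10.6 TPM, and Myom1, a protein of the M-band, with 3.66 and 8.11 TPM. In counts Ttn was only 1.54-fold higher (1.51 to 1.56), less than its TPM values give, and it is not among the 7. Here the slow form had the lower fold: Mybpc1 was 2.31-fold higher (2.10 to 2.54), below the interval of Myh7, and Mybpc2 3.58-fold higher (3.19 to 4.01), overlapping it. Unc45b, the chaperone that folds the myosin head, had 5.55 and 6.21 TPM, the lowest fold of the list at 1.21 (1.05 to 1.39).

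Of 5 other class II heavy chain genes 4 have a fold, and none of these 4 was more than 2-fold higher in replicate 2. Among all genes with more than 3 counts in a library only 9.61% were, so none of 4 is near that share. Myh9, the non-muscle IIA chain, had 79.7 TPM (replicate 1) and 73.8 TPM (replicate 2), more than any striated form in either library. Myh10, the non-muscle IIB chain, had 12.8 and 12.9 TPM, and Myh14 had 1.35 and 1.83 TPM. Myh11, the smooth muscle chain, had 3.41 and 6.50 TPM, a fold of 1.97 (1.81 to 2.16). Myh15, a further sarcomeric chain outside the 9 genes, had 0 and 1 counts.

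Markers of skeletal muscle, heart and smooth muscle are given beside these folds, and their part in them was not tested. All 7 skeletal muscle markers stood above 1 TPM in both libraries and exceeded 2-fold, from 2.20 for Cacna1s to 2.94 for Ckm, the muscle creatine kinase. Their summed levels were 295 and 805 TPM. Of these markers, Acta1 and Tnnt3 were already counted among the fast thin filament genes and Mylpf among the light chains. Across all genes that reach 100 counts on average, 4.38% passed 2-fold towards replicate 2. Of the 8 heart markers, Nppa, Nppb and Nkx2-5 were at 0 counts in each library, a reading that allows up to 3. The other heart markers included Tnni3, cardiac troponin I, with 4 and 5 counts, Actc1, cardiac actin, which developing skeletal muscle also makes, with 1.47 and 2.71 TPM, Tnnt2 with 0.36 and 0.85 TPM, Hcn4 with 0.22 TPM in both, and Ryr2, a calcium release channel that neurons also make, which was lower in replicate 2 with 3.49 and 2.63 TPM. Of the 5 heart markers with a fold in counts, none was more than 2-fold higher. Among all genes with more than 3 counts in a library only 9.61% were, so none of 5 is near that share. The fold of Tnnt2 was 1.67 with an interval of 0.900 to 3.18. All 5 smooth muscle markers were higher in replicate 2 and 3 were more than 2-fold higher. Their median fold was 2.07 and their summed levels were 49.6 and 105 TPM. Cnn1 was 7.90-fold higher (5.32 to 12.2), Acta2 3.09-fold (2.86 to 3.34) and Tagln 2.07-fold (1.87 to 2.30). Smtn was at 1.17-fold, and Myh11, already given among the class II heavy chains, at 1.97-fold. Brown adipocyte markers, with summed levels of 3430 and 3031 TPM, cortex markers and chromaffin markers had median folds of 0.990, 0.909 and 0.829.

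Genes of muscle precursors and of the immature synapse were low in both libraries. The 7 myogenic regulators summed to 0.70 TPM in replicate 1 and 2.19 TPM in replicate 2, and none reached 1 TPM in either. On few counts, 6 of the 7 passed 2-fold towards replicate 2 and the median fold was 3.50. Among all genes with more than 3 counts in a library 9.61% passed it. The intervals of Mymx, Pax7, Myf5 (1 and 4 counts, 0.396 to 197) and Mymk (1 and 7 counts, 0.900 to 316) span 1. Of these, all but Mymx are among the 6. Myf6, which maturing fibres make, had 10 and 34 counts (fold interval 1.64 to 7.72), Myog, which drives the fusion stage, had 10 and 35 (1.70 to 7.93), Myod1 had 7 and 18, and Mymx, which fuses myoblasts, had 3 and 4. Pax7, the mark of satellite cells, had 2 and 7 counts, a ratio of 3.50 with an interval of 0.667 to 34.6. Of the acetylcholine receptor subunits, Chrng, the fetal subunit, had 0 and 1 counts and Chrne, the adult one that replaces it, had 5 and 1, so the switch between them was not measurable at this depth. Chrna1 had 5 and 20 counts, Chrnb1 51 and 54, and Chrnd 0 and 8.

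Because the heavy chains are similar in sequence, reads can be shared among them, and the values of single genes are less certain than the sum. The shares below were counted on the reference transcripts only, and sequence differences of the CAST/EiJ parent were not considered. Of the 31-base stretches of the longest Myh1 transcript, 39.7% also occur in a transcript of another gene, 28.1% in Myh2 and 19.2% in Myh4. The share was 38.5% for Myh2, 32.5% for Myh8, 30.4% for Myh4, 11.2% for Myh3 and 13.7% for Myh13. Myh6 shared 32.3% with Myh7, and Myh7 shared 31.7% with Myh6, while Myh7b shares 0.179%. With stretches of 100 bases these shares fall to 9.73% for Myh1, 9.17% for Myh2, 6.61% for Myh8, 3.85% for Myh4 and 1.15% for Myh3, and to 11.4% and 11.2% for Myh6 and Myh7. Myh3 and Myh7b are therefore the members whose sequence is shared least with other genes.

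The 2 deposited quantifications gave similar counts for the genes with many counts, and very different ones for the transcripts of some genes. Gene counts of Myh4 were 4409 and 10765 in the gene table and 4570 and 11401 in the second table, and those of Myh8 were 1047 and 2128 against 1052 and 2131. In proportion the gap was wider for Myh3, with 102 and 189 against 115 and 225, and for Myh6, with 23.4 and 75.3 against 16.8 and 58.7. Myh4 and Myh8 each had a single main transcript in both tables, with 98.4% and 99.5% of the second table's level for Myh8-201 and more for Myh4-201. For Myh1 the alignment-based table gave Myh1-203, of 6081 bases, 77.1% and 68.3% of the gene's TPM, while the second table gave it 0.35% and 1.56%. The second table gave 49.2% and 45.6% instead to Myh1-204, a fragment of 631 bases at the 5′ end of the gene, and thereby put Myh1 at 54.7 and 115 TPM against 29.1 and 66.5 TPM for Myh4. For Myh2 the alignment-based table placed 99.7% and 86.6% on Myh2-201, and the second table placed 86.3% and 70.2% on Myh2-203. The leading transcript of Myh3 differed between libraries within the alignment-based table, being Myh3-201 with 85.0% in replicate 1 and Myh3-202 with 100% in replicate 2. Over transcripts of at least 5000 bases Myh1 stood below Myh4 in both libraries and in both tables, with 19.3 against 20.4 and 46.4 against 49.0 TPM in the first, and 27.8 against 29.1 and 62.7 against 66.5 TPM in the second.

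**Figure D5:**
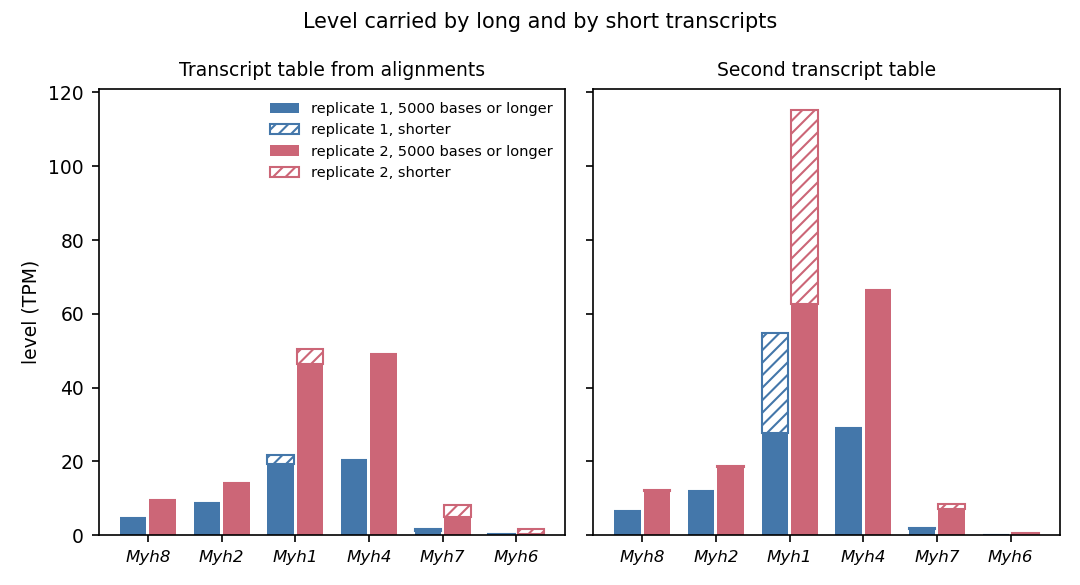
Level in TPM of 6 heavy chain genes, split into transcripts of 5000 bases or longer (filled) and shorter ones (hatched), in replicate 1 (blue) and replicate 2 (red), from the 2 deposited transcript tables. The filled bars of Myh1 and Myh4 are close to each other in both tables, and the hatched part puts Myh1 far above Myh4 in the second table only.

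Genes outside the family with nearly the same levels in the 2 libraries were found by the distance between log2(TPM + 0.1) values over the 2 libraries, among 22019 protein-coding genes. The nearest to Myh8 were Lepr with 4.67 and 9.77 TPM, Aldh8a1 with 4.89 and 9.14 TPM and Cpn2 with 5.07 and 9.40 TPM, and 25 genes lay within a distance of 0.25. The nearest to Myh1 were Crot with 20.7 and 52.4 TPM, Hpd with 22.2 and 47.3 TPM and Errfi1 with 23.3 and 52.6 TPM, with 4 genes within that distance. With 2 libraries such likeness rests on 2 values per gene.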

How the data were processed

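Per the deposited notes on the files, both the gene-level and the transcript-level table rest on transcriptome alignments (mm10, GENCODE M21), with columns named as by RSEM. They hold expected counts, not normalised, and TPM over all entries, both made by the authors. The deposited bounds of the TPM interval, a signal on the TPM scale whose level the headers do not state, were used as given. A second deposited transcript table, with columns named as by kallisto, holds estimated counts and TPM made directly from the reads. Tool versions and strand handling: not given in the sources used here.

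Symbols, coordinates and transcripts came from GENCODE M21, and promoter windows from RefSeq (GRCm38.p6), in which all 9 members matched. Folds of replicate 2 over replicate 1 used expected counts with TMM scaling (edgeR 4.0.16) over 55536 genes, with a floor of 3 counts per library in place of 0. Intervals are exact binomial (Clopper-Pearson) 95% intervals; reads carry no molecular identifiers, so intervals and floors cover counting error only. No test was run: with 2 libraries in 1 group no contrast exists. Sequence sharing compared the sense strand of each gene's longest transcript with all transcripts of other genes. The code was tested on simulated counts of 13188 genes (mean count 100 or more, counting noise only), where 95.3% of intervals held the fold that was set; this says nothing of the spread between samples. Genes named are the 9 members, up to 4 of each list by highest mean TPM (any of a list of 5 or fewer), the 3 genes nearest to the leading developmental and adult fast members, the 2 leading transcripts of each member, and overlapping genes. The short Myh1 transcript, Myl3, Myl4, Unc45b, Mybpc3, Pax7, Myf5, Mymk, Tnni3, Nppa, Nppb, Nkx2-5, Cacna1s and 2310065F04Rik are named outside that rule after their values were seen. The members and lists were chosen with earlier results of these data known. Alternatives were other scalings (DESeq2 1.42.0 among them), other units, the second table, other count minimums and each replicate alone. Python 3.11.15, scipy 1.17.1 and R 4.3.3 were used.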

Additional observations from a re-analysis of the deposited data

How the results depend on the processing

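Among the alternatives tried, the adult fast forms stayed above the developmental ones and the summed genes stayed higher in replicate 2. The second transcript table moved the developmental share to 6.48%, the adult fast share to 90.4% and the developmental over adult fast ratio to -3.80 on the log2 scale, all by more than the spread between replicates. Over transcripts of at least 5000 bases, an alternative chosen after seeing the data, the adult fast share was 87.8%. Over both replicates the slow and cardiac share ranged from 3.05% in the second table to 6.65% with posterior mean TPM. Each replicate alone gave a developmental share of 7.70% to 8.93%, an adult fast share of 84.8% to 87.2% and a slow and cardiac share of 3.78% to 7.42%. The fold of the summed genes was 2.19 under the library total and 2.22 under the spike-in total, outside its counting interval. The number of members more than 2-fold higher in replicate 2 was 3 under these 2 scalings (Myh1, Myh4 and Myh7) and 5 with a count minimum of 10 or none, which adds Myh6. The order of Myh1 and Myh4 reversed with counts not divided by length (-0.052 on the log2 scale) and over long transcripts (-0.076). Myh6 exceeded Myh3 by 0.41 in TPM, and this reversed with the second table (-1.89), with counts (-1.73) and over long transcripts (-2.23); each replicate alone gave -0.16 and 0.97. Levels rescaled over nuclear protein-coding genes were higher for all 9 genes, for example 107 TPM for Myh1 and 103 TPM for Myh4. Depth limits Myh7b and Myh13, with 10 or fewer counts in each library, most.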

Other observations

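Several noncoding genes overlap the heavy chain genes, and almost none of them had counts. Myhas, antisense to Myh1, had 5 expected counts in replicate 1 and 2 in replicate 2, where Myh1 had 4269 and 10351. The antisense gene 9430073C21Rik at the 3′ end of Myh2, and Mhrt, Gm29015 and Gm31251, antisense to Myh7, had 0 in both libraries, as did Gm26476 inside Myh13, and Gm49130, antisense to Myh6, had 3 and 1. The lincRNA 2310065F04Rik, which lies between Myh3 and Myh2 on the opposite strand, had 2 and 3 counts. Trpc4ap, whose end overlaps that of Myh7b on the opposite strand, had 3573 and 3561 counts against 10 and 7 for Myh7b.

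The microRNAs inside 3 of the genes, Mir208a in Myh6, Mir208b in Myh7 and Mir499 in Myh7b, and Mir6923 in Myh3, are listed with an effective length of 0 and 0 counts, so these tables carry no measurement of them.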
